A study of Arabidopsis thaliana with 11 samples.

Results

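Wild-type (WT) Columbia seedlings of Arabidopsis thaliana that had spent 6 h in beta-estradiol were compared with untreated WT seedlings at 0 h, over every gene of the deposited table. The samples were taken by their labels, not by a value measured in them. They are 3 of the 11 libraries of the series, 2 from WT at 6 h and 1 from WT at 0 h, and 19664 of the 33602 genes, those with at least 1 CPM (count per 1e6 reads) in at least 2 libraries. The series asked what SPEECHLESS (SPCH), the bHLH transcription factor that starts the stomatal cell lineage, does to the transcripts of seedlings when it is induced. All groups were whole seedlings, 4 days old and grown in light, and poly-A RNA was sequenced. WT at 6 h (2 libraries) and WT at 8 h (2 libraries) were Columbia seedlings kept in 10 µM beta-estradiol, and WT at 0 h (1 library) were Columbia seedlings without treatment. The iSPCH line, genotype ESTpro:SPCH1-4A-YFP, carries a YFP-tagged SPCH transgene under an estradiol-inducible promoter, and was sampled at 6 h (2 libraries) and at 8 h (2 libraries) in 10 µM beta-estradiol and at 0 h without treatment (2 libraries). Whether 1 or several independent insertion lines were used, and how many seedlings were pooled, is not given in the sources used here.

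WT seedlings have no estradiol-driven transgene, so the difference between WT at 6 h and WT at 0 h holds everything else that the incubation brought. Beta-estradiol is an animal steroid used in plants as a chemical switch. No group used here was kept for 6 h without it, so the agent, the incubation itself, the handling and the hours that passed between harvests cannot be told apart. Several of the gene groups below are well known. Plant cells short of sugar switch to burning amino acids, lipids and proteins, under the SnRK1 kinase and the S1 group of bZIP transcription factors. The circadian clock is a set of transcription factors that repress each other in turn through the day, with CCA1 and LHY high around dawn and TOC1, GI and LUX high towards dusk. Growing seedlings spend much of their transcript pool on photosynthesis and on ribosomes.

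Levels are given as normalised reads, that is reads assigned to the gene divided by the size factor of the library, and are not corrected for gene length, so they compare the same gene between samples and not genes with each other. The reads assigned to genes, in units of 1e6, were 25.4 and 23.2 in WT at 6 h and 32.8 in WT at 0 h, and 15.6 to 28.4 over the other 8 libraries. Differences are log2(normalised reads + 1) at 6 h minus that at 0 h, with the standard error (SE) and the adjusted p of limma-trend (Benjamini-Hochberg over all 19664 genes). WT at 0 h has 1 library, whose spread is assumed to be like that of the other groups in the fit. Separate cultures are not stated for the libraries of a group, and p-values therefore speak only of the spread between the libraries at hand. The untreated WT seedlings had transcripts of every leaf mesophyll, root, epidermis, vascular and guard cell marker examined, the lowest being PLT1 of the root at 21.6 and VND7 of the vasculature at 30.8. Of the shoot apex markers STM was at 28.7 in WT at 6 h and 31.6 in WT at 0 h, with CLV3 and WUS at or near 0, and of the mature seed markers CRA1 was at 6.39 in WT at 6 h and 14.6 in WT at 0 h, with OLEO1 and AT2S3 at or near 0. The summed level of the 4 mesophyll markers was 696598 in WT at 6 h and 1123004 in WT at 0 h, that of the 5 root markers was 1324 in WT at 6 h and 1655 in WT at 0 h, and that of the 3 epidermis markers 8456 in WT at 6 h and 13985 in WT at 0 h. In whole seedlings, fewer cells of a type and less RNA per cell cannot be told apart.

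A majority of the tested genes passed the test. Of 19664 genes, 11244 were called at a false discovery rate of 0.05 (57.2%), 5753 of them higher (29.3%) and 5491 lower (27.9%) in WT at 6 h than in WT at 0 h. Most differences were small: the median size over all genes was 0.51 on the log2 scale and the median SE 0.15, and the median signed difference was -0.003. A called difference of at least 2-fold was found for 1836 genes on the higher side (9.34%) and 2300 on the lower side (11.7%). At 8-fold these were 135 genes higher (0.687%) and 111 lower (0.564%). With so many calls, the shares of 29.3% and 27.9% are the background against which every gene group below is to be read. The 28 gene lists hold 571 entries, of which 481 were tested, 54 were below the filter on low reads and 36 were too abundant to be split into libraries.

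Among the genes that could be split into libraries and reached 10 CPM in the higher group, the largest rises were led by enzymes that break down amino acids. THA1, a threonine aldolase that splits threonine into glycine and acetaldehyde (chromosome 1, 2743761 to 2747967, TAIR10.1), had 13184 and 10626 normalised reads in WT at 6 h, against 50.1 in WT at 0 h. BCAT2, the mitochondrial aminotransferase of leucine, isoleucine and valine (chromosome 1, 3288087 to 3290471), had 13063 and 11172 in WT at 6 h, against 62.4 in WT at 0 h. In both genes the pair of 6 h libraries lay close together and far above the untreated one, with log2 differences of 7.86 (SE 0.62, limma adjusted p = 0.000161) and 7.57 (SE 0.16, limma adjusted p = 3.78e-12). BCB, which encodes a blue copper-binding protein of the cell surface, had 10045 and 8190 in WT at 6 h and 66.2 in WT at 0 h. The other 9 of the 12 largest rises were between 5.38 and 6.85 on the log2 scale. They included a CAP160 protein gene (AT4G25580, 6.85), a leucine-rich repeat protein gene (AT2G15880, 6.47), the tonoplast aquaporin gene BETA-TIP (5.75), a WCOR413 cold acclimation protein gene (AT4G37220, 5.61), a CCCH zinc finger gene (AT5G44260, 5.52), a NAC transcription factor gene (AT3G15500, 5.51) and the glyoxalase gene GLYI7 (5.38). AT5G34780, annotated as a thiamine diphosphate-binding enzyme, rose by 5.42 but shares 635 bases at 95.9% identity with AT1G21400, so reads may have been divided between the pair. AT1G19530, the remaining gene of the 12, had 966 and 828 in WT at 6 h and 10.0 in WT at 0 h.

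The largest falls were spread over other functions and over genes whose libraries differed more from each other. AT1G13650, an uncharacterised gene, had 14.2 and 18.1 normalised reads in WT at 6 h, against 1144 in WT at 0 h, a log2 difference of -6.07 (SE 1.29, limma adjusted p = 0.00968). CYP79F1, the cytochrome P450 that starts the synthesis of aliphatic glucosinolates, had 0.948 and 10.06 in WT at 6 h and 191 in WT at 0 h. LOX2, the chloroplast lipoxygenase that feeds jasmonate synthesis, had 26.5 and 72.5 in WT at 6 h and 1108 in WT at 0 h. In all 3 genes both 6 h libraries lay far below the untreated one, and for CYP79F1 and LOX2 they also differed widely from each other. The remaining 9 of the 12 lay between -5.14 and -4.12. They were a cysteine proteinase (AT2G27420, -5.14), the cellulose synthase-like ATCSLA15 (-4.74), CYP82C4 (-4.58), the glutathione transferase ERD9 (-4.57), PPT2, which carries phosphoenolpyruvate into plastids (-4.53), the uncharacterised AT1G65490 (-4.49), a dirigent-like protein (AT1G65870, -4.30), the expansin EXPB3 (-4.29) and a pectin lyase-like protein (AT1G60590, -4.12). The calls of LOX2 and CYP82C4 were lost when the deeper WT 6 h library was left out, that of LOX2 also in the fit of the 3 compared libraries alone, and that of CYP82C4 also without either iSPCH 8 h library. The limma adjusted p was up to 0.0627 for LOX2 and 0.103 for CYP82C4 over the alternatives. The call of ATCSLA15 was lost with an added count of 0.1 (limma adjusted p = 0.143).

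Among the most abundant genes that could be tested, the proton pump gene HA2 (-0.76), the Calvin cycle gene PRK (-0.83) and 3 genes for the translation elongation factor EF1A were called lower. The EF1A genes AT1G07920, AT1G07930 and AT1G07940 changed by -1.08, -1.13 and -1.08, but they are nearly identical in sequence and their counts cannot be kept apart with certainty. The most abundant genes called higher were GASA1, a small gibberellin-regulated protein (1.45), catalase 3 (AT1G20620, 1.54), an aspartyl protease (AT1G66180, 3.21), ADC2, the arginine decarboxylase of polyamine synthesis (1.39), and the cytosolic malate dehydrogenase c-NAD-MDH1, whose difference was only 0.27 (limma adjusted p = 0.0282) and was not called when either WT 6 h library was left out.

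Genes of sugar starvation and of amino acid breakdown moved together, and their median lay further from 0 than that of any other of the 28 lists examined. Of 22 tested members, 19 were called higher (86.4%, beside 29.3% of all genes) and 2 lower (9.09%, beside 27.9%), with a median difference of 2.87, beside -0.003 over all genes. At least 2-fold differences were found for 18 members on the higher side and 2 on the lower side. The breakdown of leucine, isoleucine and valine was covered over several successive steps. After BCAT2, the branched-chain ketoacid dehydrogenase subunit gene DIN4 had 4702 and 4268 normalised reads in WT at 6 h, against 353 in WT at 0 h. IVD, the isovaleryl-CoA dehydrogenase of leucine breakdown, had 8833 and 7616 in WT at 6 h, against 520 in WT at 0 h. The subunits of the next enzyme, methylcrotonyl-CoA carboxylase, followed: MCCA had 22687 and 19232 in WT at 6 h and 696 in WT at 0 h, and MCCB 11028 and 9823 in WT at 6 h and 630 in WT at 0 h. The log2 differences of these genes were 3.66 (DIN4), 3.98 (IVD), 4.91 (MCCA) and 4.04 (MCCB), with SE of 0.12 to 0.17 and limma adjusted p of 8.05e-10 at most. THA1, BCAT2, MCCA and DIN4 overlap a gene on the opposite strand, and since the strand of the libraries is not stated, their reads cannot be told apart from those of that neighbour.

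Other routes of nitrogen and carbon recovery rose too. LKR, the bifunctional enzyme that opens lysine breakdown, had 6631 and 5868 in WT at 6 h, against 684 in WT at 0 h (3.19). GDH1, a glutamate dehydrogenase that returns carbon skeletons from glutamate, had 7327 and 6354 in WT at 6 h, against 781 in WT at 0 h (3.12). The very abundant members could not be split into libraries and are given as the authors' group means, without error. For ASN1, the asparagine synthetase that is switched on in darkness, the authors' mean was 80613 in WT at 6 h and 666 in WT at 0 h, a ratio of 121. For DIN1, a gene named for its induction in the dark, it was 63957 in WT at 6 h and 176 in WT at 0 h, a ratio of 364. The authors' means of ERD5, the proline dehydrogenase (11.5), DIN10, a raffinose synthase-like gene (11.1), BXL1, a beta-xylosidase (9.97), and GDH2 (9.43) gave smaller ratios of WT at 6 h over WT at 0 h. All 6 unsplit members were thus higher in the 6 h mean.

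Signalling members of the list are shown beside the enzymes in the plot of starvation genes by library. AKINBETA1, a regulatory subunit of the SnRK1 kinase complex, had 7131 and 6615 in WT at 6 h, against 635 in WT at 0 h (3.43). BZIP1, a transcription factor of the S1 group, had 1127 and 1043 in WT at 6 h, against 155 in WT at 0 h (2.80). Of the trehalose-phosphate synthase-like genes, TPS11 rose most (2.94), ahead of TPS8 (2.01), TPS9 (1.59) and TPS10 (1.56). The members called lower were BZIP11, with 89.1 and 114 in WT at 6 h and 253 in WT at 0 h (-1.32), and APL3, a large subunit of the starch synthesis enzyme ADP-glucose pyrophosphorylase, with 47.4 and 39.2 in WT at 6 h and 103 in WT at 0 h (-1.24). BZIP11 is known to be held down by sucrose through its translation, and APL3 to be raised by sugar. DIN2, a beta-glucosidase gene, had 199 and 177 in WT at 6 h and 42.4 in WT at 0 h but did not pass (2.12, SE 0.79, limma adjusted p = 0.0664).

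**Figure D1:**
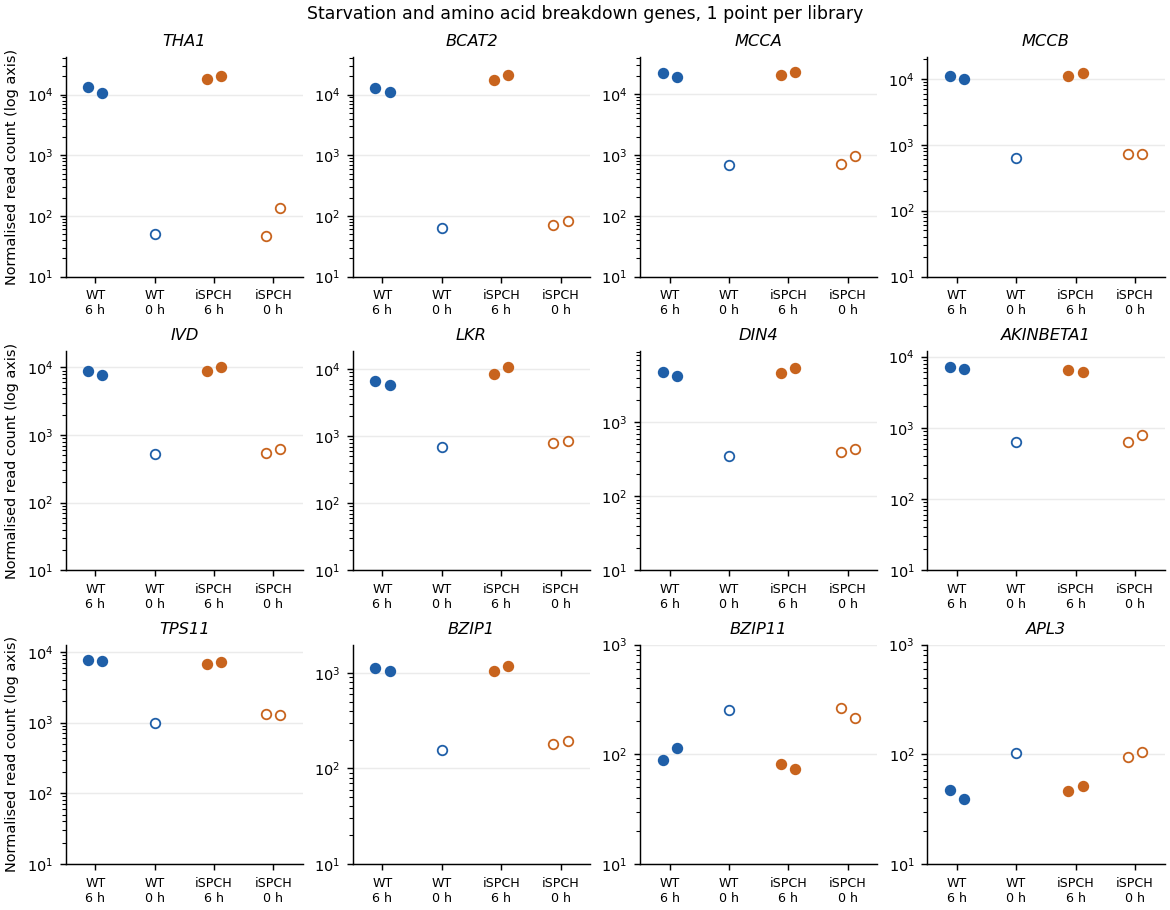
Normalised reads (log axis) of 12 sugar starvation and amino acid breakdown genes in single libraries of WT at 6 h, WT at 0 h, iSPCH at 6 h and iSPCH at 0 h, with 6 h libraries filled and 0 h libraries open. In 10 panels both WT 6 h points lie above the WT 0 h point, from 13184 and 10626 against 50.1 for THA1 to 1127 and 1043 against 155 for BZIP1, while BZIP11 and APL3 lie below it.

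The upstream sequences of ASN1 and ERD5 are shown because both are textbook targets of the S1 group of bZIP factors, which are known to bind G-boxes and, in the proline dehydrogenase promoter, ACTCAT motifs. Each sequence is the 250 bases before the annotated gene start in RefSeq TAIR10.1, written 5′ to 3′ on the gene's strand, and capitals mark the motif. For ASN1 they mark CACGTG, the G-box, and for ERD5 ATGAGT, which is ACTCAT on the other strand.
ASN1, chr3:17441432-17441681, minus strand: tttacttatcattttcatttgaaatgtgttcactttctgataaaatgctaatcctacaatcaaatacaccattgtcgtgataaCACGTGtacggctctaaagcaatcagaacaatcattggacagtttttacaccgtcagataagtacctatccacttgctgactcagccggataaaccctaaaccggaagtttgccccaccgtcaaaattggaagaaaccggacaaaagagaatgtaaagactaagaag
ERD5, chr3:12451557-12451806, minus strand: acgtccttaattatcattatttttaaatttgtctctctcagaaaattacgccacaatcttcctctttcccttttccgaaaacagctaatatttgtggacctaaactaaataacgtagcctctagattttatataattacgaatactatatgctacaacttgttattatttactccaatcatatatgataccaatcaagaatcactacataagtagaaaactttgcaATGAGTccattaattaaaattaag
The G-box of ASN1 starts 167 bases and the ACTCAT motif of ERD5 24 bases before the gene start. Both genes are outside the 19315 promoters of tested genes that were searched, on both strands, for the same letters. In those, CACGTG was present in 7.22% and ACTCAT in 11.9%. Among the 22 tested starvation and amino acid genes CACGTG was found in 2 (9.09%) and ACTCAT in 2 (9.09%), so neither short motif was frequent in these windows.

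Autophagy, the degradation of cell contents in the vacuole, is another recycling route, and its genes are grouped here by annotated product. This group, like the other product families described below, was chosen after values of these data had been seen. Of 17 tested genes 15 were called higher (88.2%) and 0 lower, with a median of 0.69. ATG8E, whose product coats the forming autophagosome, had 3100 and 2812 normalised reads in WT at 6 h, against 755 in WT at 0 h (1.97). APG5 encodes a protein of the conjugation machinery that lipidates ATG8, and it had 645 and 634 in WT at 6 h, against 242 in WT at 0 h (1.40). ATG13, of the kinase complex that starts autophagy, and ATG18G differed by 1.15 and 1.16. ATG18D had 43.6 and 68.4 in WT at 6 h and 77.0 in WT at 0 h and was not called (-0.49, limma adjusted p = 0.163). The autophagy genes thus moved less than the amino acid enzymes but in nearly all members.

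Clock genes fell into a group that dropped and a larger group that rose. Of 17 tested day- and evening-phased genes 12 were called higher (70.6%) and 0 lower, with a median of 1.15. Of 17 morning-phased genes 7 were called higher (41.2%) and 6 lower (35.3%), with a median of -0.09 that lay between -0.20 and 0.00 over the alternative settings. LHY and CCA1, the MYB factors of the dawn, led the falls. LHY had 1161 and 1205 normalised reads in WT at 6 h, against 5638 in WT at 0 h (-2.25, SE 0.16, limma adjusted p = 1.64e-07). CCA1 had 808 and 818 in WT at 6 h, against 3332 in WT at 0 h (-2.03, SE 0.17, limma adjusted p = 6.24e-07). RVE8, a related factor that activates evening genes, had 383 and 382 in WT at 6 h, against 1188 in WT at 0 h (-1.63). The pairs of 6 h libraries nearly coincided in all 3 genes, far below the untreated library. The flowering-time genes COL2 (-2.13) and CDF1 (-1.41) fell as well. Other RVE genes did not all fall, since RVE4 (1.77) and RVE7 (2.88) were called higher. RVE7 has the limit that 615 of its bases are 99.8% identical to AT3G10113.

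Among the genes that rose, the pseudo-response regulators repress CCA1 and LHY in sequence through the day. PRR7 had 5595 and 4736 in WT at 6 h, against 458 in WT at 0 h (3.49, SE 0.13). PRR5 had 826 and 706 in WT at 6 h, against 183 in WT at 0 h (2.05), and TOC1, the last of the series, 2447 and 2163 in WT at 6 h, against 778 in WT at 0 h (1.56). PRR9, the earliest, had 262 and 262 in WT at 6 h and 80.1 in WT at 0 h (1.70), with the limit that 440 of its bases are 99.3% identical to AT2G46670. GI, a scaffold of the photoperiod pathway, had 2020 and 1882 in WT at 6 h, against 367 in WT at 0 h (2.41). FKF1, a blue-light receptor F-box protein that works with GI, had 329 and 290 in WT at 6 h, against 81.6 in WT at 0 h (1.91). LUX, the DNA-binding subunit of the evening complex, had 1723 and 1522 in WT at 6 h, against 454 in WT at 0 h (1.83). Its partners ELF3 and ELF4 moved little: ELF3 was called (0.64) and ELF4 was not, with 653 and 616 in WT at 6 h and 518 in WT at 0 h. The growth-promoting bHLH genes PIF4 (1.49) and PIF5 (1.09) rose, and the RNA-binding GRP7, with 12656 and 10956 in WT at 6 h and 10865 in WT at 0 h, was not called.

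At 8 h, measured against the same WT 0 h library and therefore not independent of the 6 h values, the clock genes can be followed further, as the plot of clock genes by hour shows. CCA1 had 3332 normalised reads at 0 h, 808 and 818 at 6 h and 446 and 647 at 8 h in WT. GI had 367 at 0 h, 2020 and 1882 at 6 h and 2408 and 2165 at 8 h in WT. PRR7 had 458 at 0 h, 5595 and 4736 at 6 h and 5594 and 4738 at 8 h in WT, so that its 6 h and 8 h libraries overlapped.

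**Figure D2:**
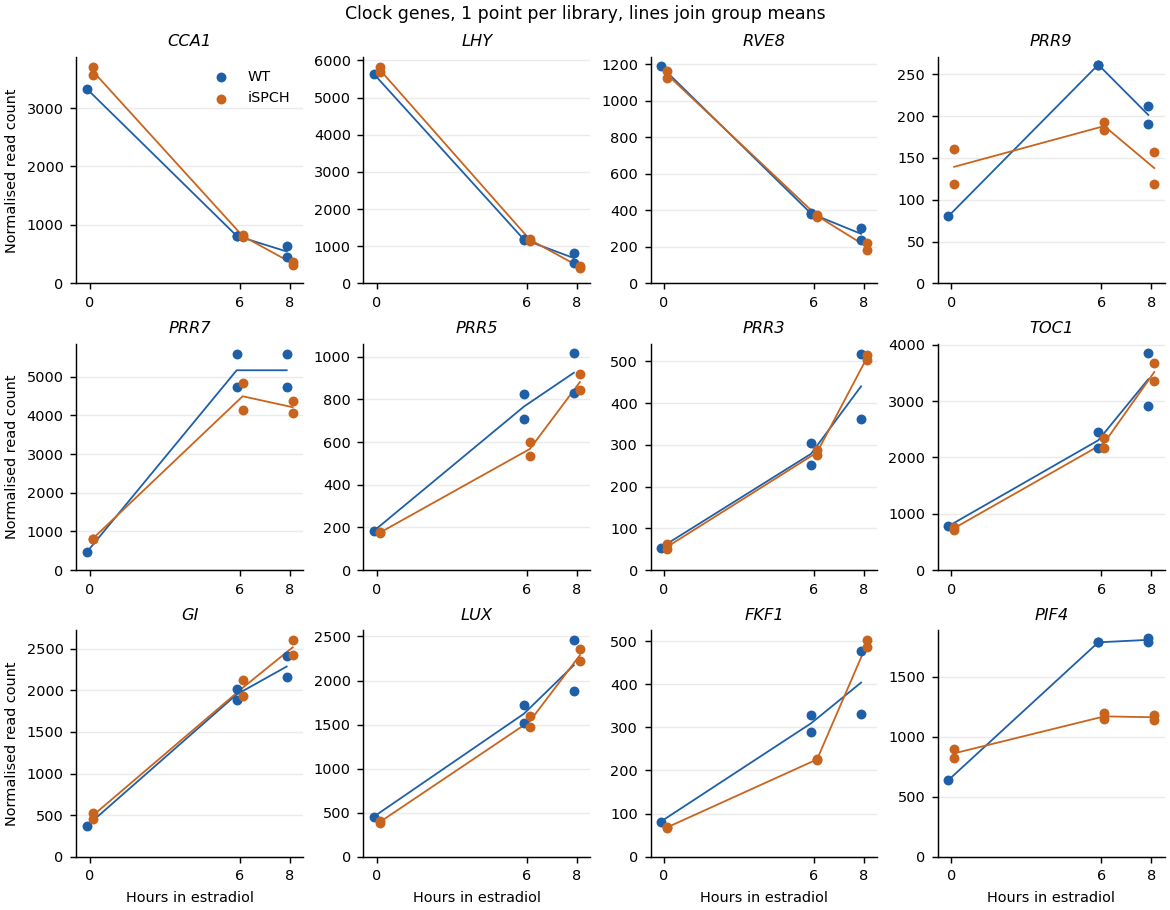
Normalised reads of 12 clock and clock-output genes at 0, 6 and 8 h in WT and iSPCH libraries, on a linear axis from 0. Points are libraries, and lines join the means of each line. CCA1, LHY and RVE8 lie lower at 6 h than at 0 h, with CCA1 at 808 and 818 against 3332 in WT, and the other 9 genes lie higher, with PRR7 at 5595 and 4736 against 458 in WT.

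The promoters of clock genes are shown because the clock's repressors and activators are known to act through short elements near the gene start. Capitals mark AAAATATCT, the evening element to which CCA1, LHY and RVE8 are known to bind, or its reverse complement AGATATTTT, in 4 evening genes that rose. Each line has the 250 bases before the annotated gene start in TAIR10.1, 5′ to 3′ on the gene's strand.
TOC1, chr5:24674713-24674962, plus strand: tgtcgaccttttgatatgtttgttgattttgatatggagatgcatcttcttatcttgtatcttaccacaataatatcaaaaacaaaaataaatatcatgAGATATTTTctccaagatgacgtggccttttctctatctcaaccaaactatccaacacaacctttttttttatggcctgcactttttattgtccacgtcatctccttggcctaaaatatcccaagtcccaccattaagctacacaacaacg
PRR5, chr5:8358547-8358796, minus strand: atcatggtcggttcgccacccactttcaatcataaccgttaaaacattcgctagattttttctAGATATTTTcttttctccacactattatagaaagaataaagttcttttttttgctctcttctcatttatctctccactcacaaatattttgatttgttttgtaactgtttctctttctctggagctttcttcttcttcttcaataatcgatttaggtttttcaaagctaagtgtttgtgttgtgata
LUX, chr3:17182792-17183041, plus strand: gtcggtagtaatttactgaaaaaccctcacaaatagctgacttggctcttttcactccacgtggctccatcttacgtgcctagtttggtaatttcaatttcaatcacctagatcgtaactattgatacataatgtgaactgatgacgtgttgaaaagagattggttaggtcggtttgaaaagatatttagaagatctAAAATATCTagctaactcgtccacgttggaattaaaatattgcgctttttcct
FKF1, chr1:25508389-25508638, plus strand: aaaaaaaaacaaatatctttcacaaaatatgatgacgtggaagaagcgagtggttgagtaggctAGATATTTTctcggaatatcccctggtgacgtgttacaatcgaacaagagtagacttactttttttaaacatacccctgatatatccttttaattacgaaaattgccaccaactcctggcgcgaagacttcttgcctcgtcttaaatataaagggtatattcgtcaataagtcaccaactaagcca
The element starts 151 bases before the gene start in TOC1, 187 in PRR5, 53 in LUX and 186 in FKF1. Searched on both strands, it was present in 7 of the 17 tested day and evening genes (41.2%), which were those 4 with BOA, GRP7 and GRP8, and in 2.46% of 19315 promoters of tested genes. Of these 7 genes 5 were called higher, all but GRP7 and GRP8. For the genes that peak in the morning the G-box CACGTG is marked in CCA1 and LHY, which fell, and in PRR7, which rose.
CCA1, chr2:19245341-19245590, plus strand: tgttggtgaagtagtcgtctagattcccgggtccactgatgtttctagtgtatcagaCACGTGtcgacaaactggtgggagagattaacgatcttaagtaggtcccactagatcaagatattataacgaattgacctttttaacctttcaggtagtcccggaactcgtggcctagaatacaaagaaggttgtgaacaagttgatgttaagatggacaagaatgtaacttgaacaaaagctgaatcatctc
LHY, chr1:37872-38121, minus strand: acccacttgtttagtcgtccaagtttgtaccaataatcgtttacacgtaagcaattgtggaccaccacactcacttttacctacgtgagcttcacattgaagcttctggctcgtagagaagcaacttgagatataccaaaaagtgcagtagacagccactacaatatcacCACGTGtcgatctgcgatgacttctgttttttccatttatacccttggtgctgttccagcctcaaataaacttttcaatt
PRR7, chr5:642031-642280, minus strand: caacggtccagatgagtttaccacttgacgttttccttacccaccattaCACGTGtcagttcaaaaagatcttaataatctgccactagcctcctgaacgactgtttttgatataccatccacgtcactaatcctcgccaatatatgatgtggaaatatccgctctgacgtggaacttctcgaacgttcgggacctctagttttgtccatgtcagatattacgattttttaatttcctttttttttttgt
CACGTG was found in 7 of 17 morning genes (41.2%) and in 7.22% of all searched promoters. LHY and CCA1 are among the 7 and were lower, RVE2 too, while PRR7, PRR9 and CDF2 are among them and were higher and RVE1 was not called, so members with the motif moved both ways. Over all genes with a called rise of at least 8-fold and a promoter in the table, 131 in number, the evening element was present in 6.87% and the G-box in 13.7%. Such matches describe sequence and not binding.

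Genes of photosynthesis and chlorophyll that could be tested were mostly lower, while the antenna proteins went both ways. Of the 8 members of the light harvesting and chlorophyll list that could be tested, 7 were called lower (87.5%) and 0 higher, with a median of -1.44. Of the 20 members that could not be split into libraries, the authors' means were lower at 6 h for 12 and higher for 8. With these included and each mean divided evenly over its libraries, which leaves them no spread, 16 were called lower and 4 higher and the median was -0.62. HEMA1, glutamyl-tRNA reductase at the entry of chlorophyll synthesis, had 4288 and 3502 normalised reads in WT at 6 h, against 14689 in WT at 0 h (-1.92). PORC, the protochlorophyllide reductase of green tissue, had 862 and 851 in WT at 6 h, against 5287 in WT at 0 h (-2.62). ELIP2, a light stress protein, had 28.4 and 43.3 in WT at 6 h and 377 in WT at 0 h (-3.39), and PORB, with 5511 and 5045 in WT at 6 h and 5627 in WT at 0 h, was not called. The most abundant members are known here only as the authors' means. For RCA, Rubisco activase, these were 80615 in WT at 6 h and 358167 in WT at 0 h, 4.44-fold lower at 6 h. The Rubisco small subunit genes had 6 h means that were 2.23-fold (RBCS1A), 4.62-fold (RBCS1B), 3.99-fold (RBCS2B) and 2.76-fold (RBCS3B) below the WT 0 h values, and CHLH, of magnesium chelatase, one that was 3.67-fold below.

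The authors' means of the 14 light-harvesting antenna genes were higher at 6 h for 8 and lower for 6 in WT, and higher for 3 and lower for 11 in iSPCH. The ratio of WT at 6 h over WT at 0 h was 1.04 for LHCB1.1, 1.52 for LHCB1.2 and 1.48 for LHCB1.3, which are near-identical copies, and 1.61 for LHCA4, 1.33 for LHCB4.2, 1.27 for LHCA3, 1.15 for LHCA1 and 1.02 for LHCA2. It was 0.95 for LHCB2.1, 0.93 for LHCB2.2, 0.87 for LHCB4.1, 0.78 for LHCB3, 0.77 for LHCB5 and 0.55 for LHCB6. Grouped by annotated product, 36 tested light-harvesting and photosystem genes, the less abundant of the family, included 27 called lower (75%) and 2 higher (5.56%), with a median of -0.97. Lhca6, an antenna protein that links photosystem I to another complex, had 590 and 581 in WT at 6 h, against 3671 in WT at 0 h (-2.65), and PSB28, a photosystem II assembly protein, 816 and 910 in WT at 6 h, against 6059 in WT at 0 h (-2.81). Of the mesophyll markers given above, RBCS1A, LHCB1.1 and LHCB3 are themselves members of the light harvesting and chlorophyll list. LHCB1.1 was not lower, with means of 309575 in WT at 6 h and 297202 in WT at 0 h. RBCS1A, LHCB3 and CA1 were lower, CA1 with 45210 in WT at 6 h and 146863 in WT at 0 h. The part of cell composition was not tested.

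Ribosomal protein genes, a large family by annotated product, were mostly lower. Of 317 tested genes whose annotated product names a ribosomal protein, 238 were called lower (75.1%, beside 27.9% of all genes) and 23 higher (7.26%), and the median was -0.82. At least 2-fold falls were found for 128 and rises for 2. AT5G59850, a protein of the small subunit, had 915 and 1093 normalised reads in WT at 6 h, against 4039 in WT at 0 h (-2.01). AT3G04840, ribosomal protein S3Ae, had 2251 and 2556 in WT at 6 h, against 8894 in WT at 0 h (-1.89), and AT4G31700, ribosomal protein S6, 2892 and 3339 in WT at 6 h, against 10530 in WT at 0 h (-1.76). RPL4 of the plastid ribosome had 8657 and 8411 in WT at 6 h and 13332 in WT at 0 h, a smaller fall (-0.64). Ribosomal proteins are encoded by small sets of closely similar genes, and reads of such copies are uncertain. The plot of families by gene shows most genes of the ribosomal group below the middle of all genes, with some above it. Of the 2 genes that rose 2-fold, AT4G38090 (1.28) carries only a domain named for ribosomal protein S5.

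Promoters of AT5G59240 and AT3G11120, a cytosolic S8e and an L41 gene that fell by 2.28 and 1.84 on the log2 scale, are shown for the telo-box AAACCCTA, a motif known from genes of the translation machinery. They were picked as the 2 ribosomal genes with the largest called falls among those that carry the motif, so its presence in them is no result. Capitals mark the telo-box, here as its reverse complement TAGGGTTT, in the 250 bases before the annotated gene start (TAIR10.1, 5′ to 3′ on the gene's strand).
AT5G59240, chr5:23903768-23904017, minus strand: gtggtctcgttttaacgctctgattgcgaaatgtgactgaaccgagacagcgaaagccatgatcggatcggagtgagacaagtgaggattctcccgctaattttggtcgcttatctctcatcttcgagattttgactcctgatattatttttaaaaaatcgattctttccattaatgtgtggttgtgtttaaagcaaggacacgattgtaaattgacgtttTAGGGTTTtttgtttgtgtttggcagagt
AT3G11120, chr3:3480770-3481019, plus strand: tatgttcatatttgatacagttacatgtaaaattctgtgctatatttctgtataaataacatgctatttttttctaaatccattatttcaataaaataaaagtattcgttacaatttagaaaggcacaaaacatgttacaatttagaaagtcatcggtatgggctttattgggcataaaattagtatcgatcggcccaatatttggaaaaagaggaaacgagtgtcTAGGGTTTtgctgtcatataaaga
The motif starts 29 bases before the gene start in AT5G59240, which had 11.4 and 13.1 normalised reads in WT at 6 h and 63.2 in WT at 0 h, and 24 bases before it in AT3G11120, which had 551 and 589 in WT at 6 h and 2048 in WT at 0 h. On both strands it was present in 47 of the 317 ribosomal promoters (14.8%) and in 3.57% of the 19315 promoters searched. It was found in 0 of 131 promoters of genes with a called rise of at least 8-fold and in 2 of 106 of those with a called fall of at least 8-fold (1.89%), and in 2.31% of promoters of genes with rises of at least 2-fold and 4.07% of those with falls of at least 2-fold.

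**Figure D3:**
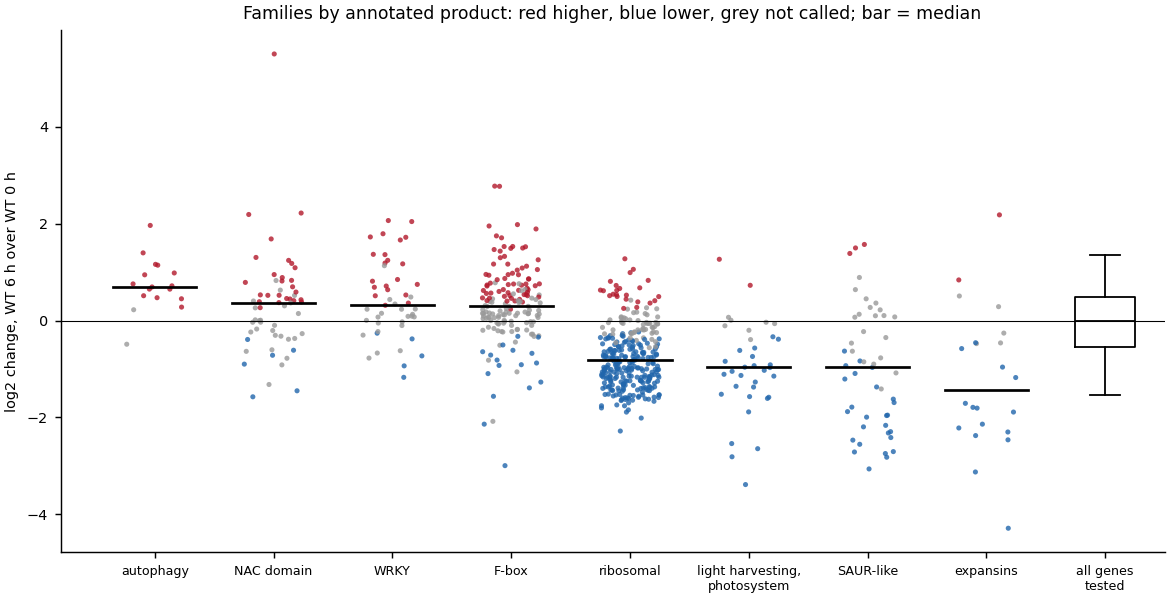
Log2 difference of WT at 6 h minus WT at 0 h for the tested genes of 8 families grouped by annotated product, with a point per gene and the box of all tested genes beside them (whiskers from the 5th to the 95th percentile). Autophagy, NAC, WRKY and F-box genes centre above 0 (medians 0.69, 0.37, 0.33 and 0.30), and ribosomal, photosystem, SAUR-like and expansin genes below it (medians -0.82, -0.97, -0.97 and -1.44).

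Transcripts for flavonoid synthesis were lower from the first to the last steps of the pathway. Of 17 tested genes 15 were called lower (88.2%), all of them by at least 2-fold, and 2 were called higher (11.8%), with a median of -2.21. PAL1, phenylalanine ammonia-lyase at the entry of the phenylpropanoid pathway, had 2216 and 2405 normalised reads in WT at 6 h, against 12247 in WT at 0 h (-2.41). CHS, chalcone synthase, the first committed enzyme, had 2346 and 2842 in WT at 6 h, against 11793 in WT at 0 h (-2.19, SE 0.29, limma adjusted p = 0.000493). F3H, flavanone 3-hydroxylase, had 383 and 451 in WT at 6 h, against 1929 in WT at 0 h (-2.21). FLS1, the flavonol synthase, had 337 and 338 in WT at 6 h, against 2066 in WT at 0 h (-2.61), and the flavonol glycosyltransferase gene UGT78D1 173 and 170 in WT at 6 h, against 1831 in WT at 0 h (-3.41). DFR and LDOX, of the anthocyanin branch, were low even before treatment. DFR had 5.69 and 8.05 in WT at 6 h and 82.4 in WT at 0 h, and LDOX, which is 96% identical to AT4G22870 over 321 bases, 12.3 and 13.1 in WT at 6 h and 83.2 in WT at 0 h. No 6 h library reached the untreated level in any of these genes.

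The regulators of the pathway differed in direction. MYB111, an activator of flavonol genes, had 9.48 and 13.1 in WT at 6 h, against 120 in WT at 0 h (-3.32), whereas its relative MYB12 had 209 and 204 in WT at 6 h and 140 in WT at 0 h (0.56). HY5, the bZIP factor of light signalling, had 369 and 414 in WT at 6 h and 302 in WT at 0 h (0.37), and its relative HYH 245 and 245 in WT at 6 h, against 736 in WT at 0 h (-1.59). The called rises of HY5 and MYB12 were thus below 2-fold. The upstream sequences of CHS, F3H and DFR are shown with the G-box CACGTG, a site of bZIP and bHLH factors, in capitals (250 bases before the annotated gene start, TAIR10.1, 5′ to 3′ on the gene's strand).
CHS, chr5:4488226-4488475, plus strand: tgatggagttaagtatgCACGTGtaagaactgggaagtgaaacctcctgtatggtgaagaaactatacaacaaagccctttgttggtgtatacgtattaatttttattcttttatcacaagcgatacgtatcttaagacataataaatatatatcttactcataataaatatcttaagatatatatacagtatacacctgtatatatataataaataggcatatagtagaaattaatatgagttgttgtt
F3H, chr3:19024942-19025191, plus strand: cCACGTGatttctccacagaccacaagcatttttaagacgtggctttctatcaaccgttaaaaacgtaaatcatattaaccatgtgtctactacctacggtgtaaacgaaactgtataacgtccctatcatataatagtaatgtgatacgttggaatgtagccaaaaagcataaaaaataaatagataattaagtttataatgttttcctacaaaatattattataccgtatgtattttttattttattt
DFR, chr5:17166033-17166282, minus strand: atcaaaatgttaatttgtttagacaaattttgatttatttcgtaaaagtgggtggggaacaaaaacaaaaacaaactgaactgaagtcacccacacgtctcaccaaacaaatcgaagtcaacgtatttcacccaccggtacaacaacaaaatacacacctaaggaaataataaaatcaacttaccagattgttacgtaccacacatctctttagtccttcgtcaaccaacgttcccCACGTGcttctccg
The G-box starts 233 bases before the gene start in CHS, 249 in F3H and 14 in DFR. It was present in 5 of 17 flavonoid promoters (29.4%), those 3 with MYB12 and CHIL, beside 7.22% of all promoters searched. Of these 5 genes MYB12 rose and the other 4 fell, CHIL with 270 and 337 normalised reads in WT at 6 h and 2113 in WT at 0 h (-2.80).

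Most tested genes of the sulfate and nitrate lists were lower. Of 11 tested sulfate genes 9 were called lower (81.8%) and 1 higher (9.09%), with a median of -1.34. The reductases of activated sulfate led: APR2 had 545 and 541 normalised reads in WT at 6 h, against 5056 in WT at 0 h (-3.22), APR1 57.8 and 103 in WT at 6 h, against 666 in WT at 0 h (-3.10), and APR3 315 and 274 in WT at 6 h, against 1375 in WT at 0 h (-2.22). SIR, sulfite reductase, the next enzyme, fell by 1.38. Of 12 nitrate genes 7 were called lower (58.3%) and 2 higher (16.7%), with a median of -0.93. NIR1, nitrite reductase, had 2616 and 2681 in WT at 6 h, against 15212 in WT at 0 h (-2.52), and the nitrate transporter and sensor gene NRT1.1 2675 and 2493 in WT at 6 h, against 7200 in WT at 0 h (-1.48). In contrast to these, the authors' means of both nitrate reductase genes were higher at 6 h. That of NIA1 was 34801 in WT at 6 h and 13278 in WT at 0 h, a ratio of 2.62, and that of NIA2 48676 in WT at 6 h and 37450 in WT at 0 h, a ratio of 1.3. With these unsplit genes included, 7 nitrate genes were called lower and 4 higher and the median was -0.40. The 2 called rises among the 12 were BT1 and BT2, BTB scaffold proteins that limit nitrate use, and they were large. BT1 had 20326 and 19164 in WT at 6 h, against 2178 in WT at 0 h (3.18), and BT2 14583 and 13050 in WT at 6 h, against 3209 in WT at 0 h.

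Genes of cell growth and cell division were mostly lower. Of 27 tested genes of S phase and mitosis 17 were called lower (63%) and 1 higher (3.7%), with a median of -0.64. The replication clamp gene PCNA1 had 101 and 123 normalised reads in WT at 6 h, against 339 in WT at 0 h (-1.60), and CDT1A, a licensing factor of replication origins, 89.1 and 94.6 in WT at 6 h, against 261 in WT at 0 h (-1.50). All 6 helicase subunit genes MCM2 to MCM7 were called lower, between -1.12 (MCM3) and -0.64 (MCM4). CDC6, another licensing factor, rose, with 110 and 110 in WT at 6 h and 53.1 in WT at 0 h (1.03). The mitotic cyclin genes stood closer to their untreated level: CYCB1;1 had 64.5 and 65.4 in WT at 6 h and 86.3 in WT at 0 h and was not called (-0.41, limma adjusted p = 0.145), and of 4 B1 and B2 cyclins besides it only CYCB1;4 was called (-0.78).

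Among the genes of wall loosening the expansins were mostly lower, and the xyloglucan endotransglucosylases went both ways. Of 22 tested genes of the wall list 12 were called lower (54.5%) and 4 higher, with a median of -0.64. Every called alpha-expansin of the list was lower, such as EXPA1, with 1169 and 1786 in WT at 6 h, against 7122 in WT at 0 h (-2.30), and EXPA8, with 497 and 534 in WT at 6 h, against 1911 in WT at 0 h (-1.89). Expansins loosen the wall without cutting it, and by annotated product 15 of 22 tested expansin genes were called lower (68.2%) and 2 higher, EXLA1 (2.18) and the alpha-expansin EXPA16 (0.84). The 4 genes called higher in the wall list were xyloglucan endotransglucosylases, which cut and rejoin wall xyloglucan. XTH22, also known as TCH4, had 8925 and 8656 in WT at 6 h, against 278 in WT at 0 h (4.98), XTH15 1818 and 1803 in WT at 6 h, against 554 in WT at 0 h (1.71), and the authors' mean of the unsplit XTH24 was 31624 in WT at 6 h and 1541 in WT at 0 h. Others of the same family fell, XTH31 most, with 336 and 414 in WT at 6 h, against 3401 in WT at 0 h (-3.19).

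Hormone genes differed by pathway. For auxin, 10 of 22 tested genes were called lower (45.5%) and 3 higher (13.6%), with a median of -0.51. The early auxin response genes IAA1 (-1.70), IAA19 (-1.84) and SAUR-AC1 (-1.95) fell, while IAA20, at 15.2 and 20.1 in WT at 6 h and 0.77 in WT at 0 h, rose (3.38). Of 49 tested genes annotated as SAUR-like, small proteins of auxin-driven elongation, 26 were called lower (53.1%) and 3 higher, with a median of -0.97. Over the alternative settings 8 to 32 of them were called lower and 0 to 5 higher, with medians of -1.44 to -0.77. For cytokinin, 12 of 16 were called lower (75%) and 1 higher (6.25%), with a median of -0.94, and 7 were lower without the deeper WT 6 h library. The called type-A response regulators, which are switched on by cytokinin and damp its signal, were all lower, ARR7 with 82.5 and 131 in WT at 6 h, against 552 in WT at 0 h (-2.40). The only rise was CKX5 (1.12), a cytokinin oxidase that removes the hormone.

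Ethylene genes separated by role. Of 19 tested genes 10 were called higher (52.6%) and 6 lower (31.6%), with a median of 0.70. Signalling genes rose: the receptor genes ETR2 (1.89), ERS2 (1.23), ERS1 (1.03) and ETR1 (0.70), the kinase CTR1 that works with them (1.29), the transcription factor EIN3 (1.07) and EBF2 (1.04), the F-box protein that removes EIN3. EFE, an ACC oxidase of the last step of synthesis, rose, with 21054 and 21708 in WT at 6 h, against 5664 in WT at 0 h (1.92). The genes of the step before, ACC synthases, were lower where called. ACS4 had 2.84 and 2.01 in WT at 6 h, against 94.7 in WT at 0 h (-4.81), ACS5 11.4 and 13.1 in WT at 6 h, against 50.1 in WT at 0 h (-1.95), and ACS6 51.2 and 74.5 in WT at 6 h, against 137 in WT at 0 h (-1.14). ACO1, another ACC oxidase, was lower too (-0.97). The count of ethylene genes called lower was 0 when only genes with a mean of at least 5 CPM were tested. It was 3 in the fit of the 3 compared libraries alone and in that of the 5 WT libraries alone.

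Touch and early stress genes rose as a group. Of 22 tested genes 16 were called higher (72.7%) and 3 lower (13.6%), with a median of 0.97, and XTH22 and TCH3, both named for touch, led. TCH3, a calmodulin-like protein, had 5583 and 5886 in WT at 6 h, against 853 in WT at 0 h (2.75). ERF104, an ethylene response factor of stress signalling, had 989 and 805 in WT at 6 h, against 196 in WT at 0 h (2.18). TCH2, a further touch gene, went the other way, with 269 and 291 in WT at 6 h and 471 in WT at 0 h (-0.75), and so did the calmodulin gene CAM2 (-0.59) and WRKY53 (-0.73). Defence genes gave 7 higher (46.7%) and 4 lower (26.7%) of 15. The immune receptor FLS2 (2.13) and the kinase FRK1 (2.88) were among the rises, and EDS5 (-0.92) and PAD3 (-1.82) among the falls. The count of defence genes called higher was 4 when only genes with a mean of at least 5 CPM were tested. Heat genes gave 5 higher (38.5%) and 0 lower of 13, and the chaperone genes HSP70, HSP101 and HSP17.6A were not called. By annotated product, 26 of 59 tested NAC genes (44.1%) were called higher and 6 lower, and 21 of 48 tested genes annotated as WRKY (43.8%) higher and 5 lower. POLAR, the stomatal polarity gene, carries that annotation and is 1 of the 5. RD26, a NAC factor of drought and senescence, had 1086 and 1082 in WT at 6 h, against 237 in WT at 0 h (2.19), and NAC6, which promotes leaf senescence, 128 and 124 in WT at 6 h, against 26.2 in WT at 0 h (2.22).

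**Figure D4:**
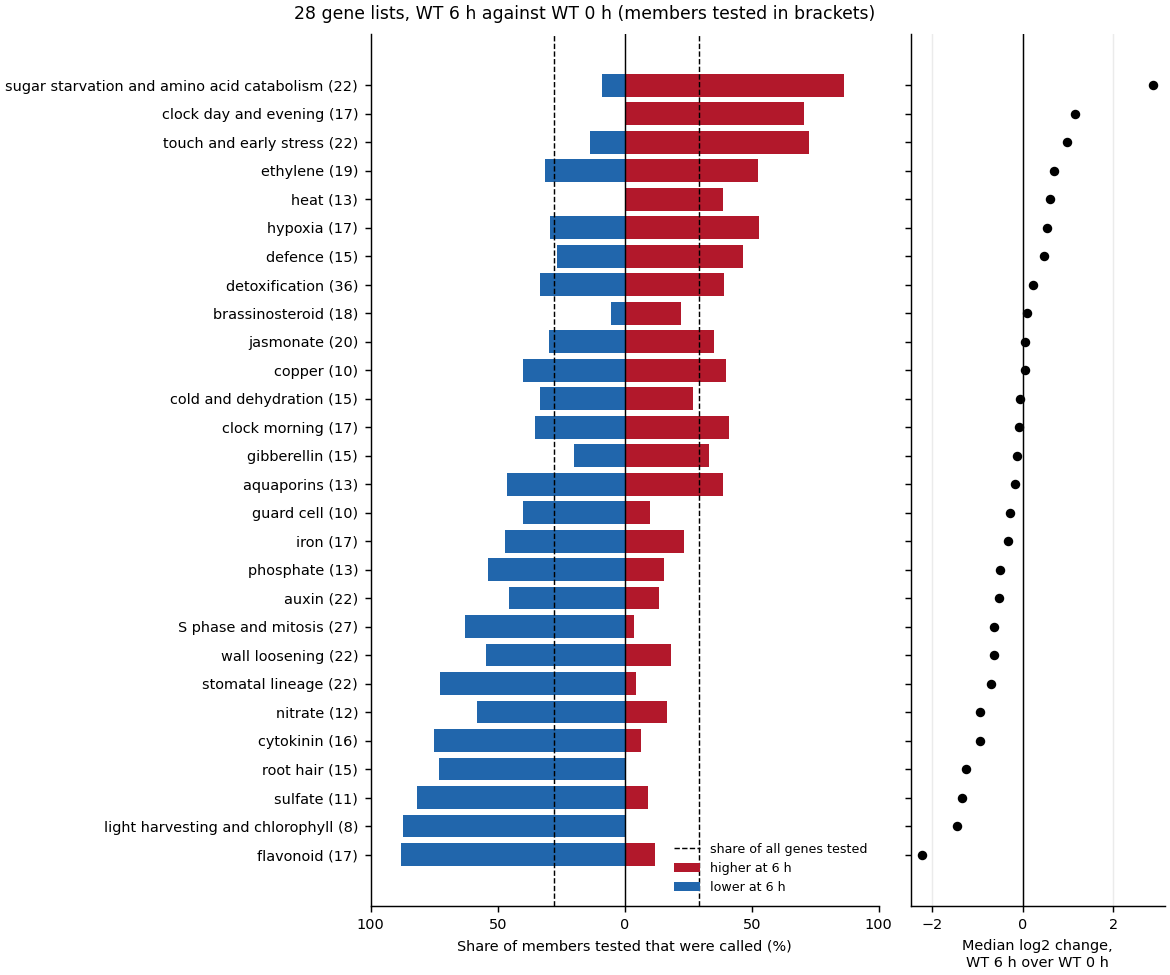
Share of the tested members of 28 gene lists that were called higher or lower in WT at 6 h than in WT at 0 h, with dashed lines at the background shares of 29.3% and 27.9%, and the median log2 difference of each list. Sugar starvation and amino acid breakdown stands at one end (19 of 22 higher, median 2.87) and flavonoid synthesis at the other (15 of 17 lower, median -2.21).

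Genes of epidermal cell types were followed because stomata are what the series is about. Of 22 tested stomatal lineage genes 16 were called lower (72.7%) and 1 higher (4.55%) in WT, with a median of -0.70. The count called lower was 10 when only genes with a mean of at least 5 CPM were tested. The endogenous SPCH had 103 and 130 normalised reads in WT at 6 h and 178 in WT at 0 h, a difference that only just passed (-0.62, SE 0.23, limma adjusted p = 0.0493) and was lost in 8 of 23 alternative settings, 1 of them without the deeper WT 6 h library. EPF2, a peptide that limits entry into the lineage, had 9.48 and 10.06 in WT at 6 h, against 41.6 in WT at 0 h (-1.98), and EPFL9, the stomagen peptide of the mesophyll that promotes stomata, 85.3 and 62.4 in WT at 6 h, against 238 in WT at 0 h (-1.69). FAMA, which acts at the last division, had 481 and 423 in WT at 6 h and 410 in WT at 0 h and was not called. The rise belonged to ATSBT5.2, a subtilase (1.35). Of 15 tested root hair genes 11 were called lower (73.3%) and 0 higher, with a median of -1.25, led by RHS19, EXPA18, COBL9 and ADF8 among the smallest p. COBL9, a wall-anchored protein of growing hairs, had 74.9 and 76.5 in WT at 6 h, against 214 in WT at 0 h (-1.49). The count of root hair genes called lower was 5 without the deeper WT 6 h library, 7 without the other one, and 4 when only genes with a mean of at least 5 CPM were tested. COBL9 and EXP7 are also 2 of the 5 root markers, EXP7 with a mean of 119 in WT at 6 h and 233 in WT at 0 h. The means of the other 3 root markers were 768 in WT at 6 h and 860 in WT at 0 h for CASP1, 341 in WT at 6 h and 326 in WT at 0 h for SHR, and 20 in WT at 6 h and 21.6 in WT at 0 h for PLT1. The part of cell composition was not tested.

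Metal homeostasis gave mixed lists with large single changes. Of 17 tested iron genes 8 were called lower (47.1%) and 4 higher (23.5%), with a median of -0.33. The uptake system of the root was lower, with IRT1, the iron transporter, at 595 and 813 in WT at 6 h, against 3793 in WT at 0 h (-2.44), and FRO2, the ferric reductase, at 240 and 456 in WT at 6 h, against 2214 in WT at 0 h (-2.74). The ferritin gene FER3, for iron storage, had 349 and 354 in WT at 6 h, against 1760 in WT at 0 h (-2.32). BHLH101, a regulator of iron uptake, rose, with 149 and 259 in WT at 6 h and 29.3 in WT at 0 h (2.70). The 6 h libraries of the related BHLH100 and BHLH38 differed widely, BHLH100 with 28.4 and 166 in WT at 6 h and 62.4 in WT at 0 h, and neither was called. Of 10 copper genes 4 were called higher (40%) and 4 lower (40%), with a median of 0.05. With both lines' untreated libraries as baseline only 1 copper gene was called higher, and the call of CSD1 was lost. The largest change was that of CSD2, the chloroplast copper/zinc superoxide dismutase, with 2502 and 1853 in WT at 6 h, against 9277 in WT at 0 h (-2.11).

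The same hours in the iSPCH line offer a comparison that shares no library with the WT one. Between iSPCH at 6 h and iSPCH at 0 h, 12797 genes were called (65.1%), 6520 higher (33.2%) and 6277 lower (31.9%). Of the genes called higher in WT, 5156 were also called higher in iSPCH, which is 89.6% of the WT calls and 79.1% of the iSPCH calls. Of those called lower in WT, 4862 were lower in iSPCH, 88.5% of the WT calls and 77.5% of the iSPCH calls. Calls in opposite directions were 17 genes higher in WT and lower in iSPCH and 15 the other way. Across genes, which are not independent replicates, the log2 differences of the lines correlated with Pearson's r = 0.926, as the plot of WT against iSPCH differences shows. THA1 had 18350 and 20502 in iSPCH at 6 h, against 45.8 and 135 in iSPCH at 0 h, and BCAT2 17308 and 20774 in iSPCH at 6 h, against 69.7 and 83.6 in iSPCH at 0 h. CCA1 had 830 and 793 in iSPCH at 6 h, against 3568 and 3702 in iSPCH at 0 h. In 11 of the 12 largest falls in WT the iSPCH 6 h libraries lay further apart on the log2 scale than the WT 6 h ones, CYP79F1 being the exception. AT1G13650 had 48.9 and 4.201 in iSPCH at 6 h and 1351 and 1023 in iSPCH at 0 h. The list medians were 2.87 in WT and 2.90 in iSPCH for sugar starvation and amino acid breakdown, and -0.82 in WT and -0.52 in iSPCH for ribosomal proteins. Of the WT genes with at least 2-fold rises, 1460 of 1836 rose at least 2-fold in iSPCH, and of those with 2-fold falls 1873 of 2300 fell so.

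**Figure D5:**
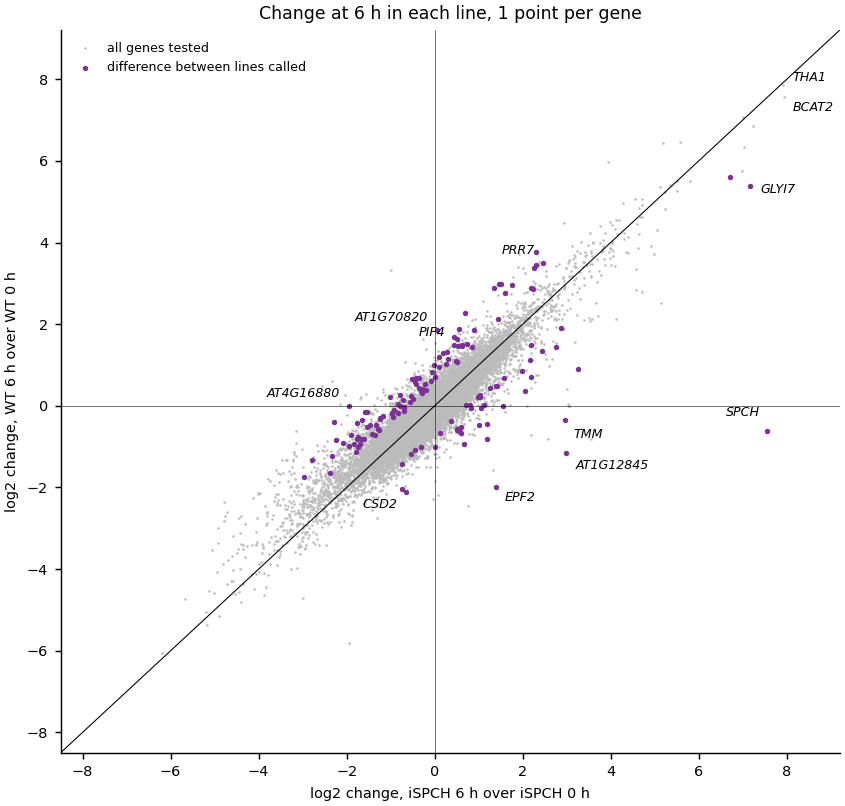
Log2 difference of 6 h minus 0 h in WT (vertical) and in iSPCH (horizontal) for 19664 tested genes. The 141 genes whose differences differed between the lines are in purple. Most genes lie along the diagonal (r = 0.926), and SPCH lies far below it, at -0.62 in WT and 7.55 in iSPCH.

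The change from 0 h to 6 h differed between WT and iSPCH for 141 genes (0.717%), 95 with the WT change the more positive (0.483%) and 46 with it the more negative (0.234%), at a limma FDR of 0.05 for the difference. This count moved with single libraries: it was 41 or 56 without either of the WT 6 h libraries, 65 or 79 without either of the iSPCH 0 h libraries, and 280 without the deeper iSPCH 6 h library. Most negative was SPCH itself, where the transgene reads are counted with the endogenous gene, with 37224 and 37521 in iSPCH at 6 h and 170 and 232 in iSPCH at 0 h. After it came AT1G12845, EPF2, TMM and AT2G25460. AT1G12845, an uncharacterised gene, had 34.1 and 39.2 in WT at 6 h and 83.2 in WT at 0 h, and 554 and 514 in iSPCH at 6 h and 67.7 and 65.1 in iSPCH at 0 h. Among the positive differences were AT4G16880, AT3G55240, AT1G70820, AT4G16870 and AT2G25200. AT1G70820, a phosphoglucomutase-like gene, had 2279 and 1952 in WT at 6 h and 581 in WT at 0 h, and 927 and 797 in iSPCH at 6 h and 893 and 767 in iSPCH at 0 h. PIF4 had 1784 and 1786 in WT at 6 h and 636 in WT at 0 h, and 1193 and 1144 in iSPCH at 6 h and 824 and 897 in iSPCH at 0 h, so the WT libraries lay above those of iSPCH at 6 h and the WT library lay below them at 0 h. PRR7 had 5595 and 4736 in WT at 6 h and 458 in WT at 0 h, and 4146 and 4841 in iSPCH at 6 h and 804 and 812 in iSPCH at 0 h, so the lines overlapped at 6 h and differed at 0 h.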

How the data were processed

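Poly-A RNA of whole seedlings was sequenced in 11 libraries of 6 groups. Per the submitters' processing notes, TAIR10 was the genome and DESeq, TopHat and CASAVA 1.8 were used. Their roles, other versions, the strand setting, the counting software and the gene models used for it are not stated in these sources. The authors deposited 1 table of signal values, the group means of normalised read counts for 33602 genes. Reads per library were recovered from these means as whole multiples of each library's step. They had 1 solution in every group for 33488 genes. The other 114, with a highest group mean of at least 17171 and 31.5% of assigned reads, were not tested and are printed as the authors' means. The order of libraries within a group is arbitrary and carries no replicate number. All columns were used.

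Reads divided by size factors were analysed as log2(value + 1) with limma 3.58.1 (R 4.3.3), trended and robust, with 1 coefficient per group over all 11 libraries. Genes reaching 1 CPM in 2 or more libraries were tested at a Benjamini-Hochberg FDR of 0.05. On simulated data for 19594 genes, the WT 6 h against 0 h test found 50.7%, 86.6% and 98.5% of changes of 1.5, 2 and 4-fold, with 9 false calls of 166. Only 67, 67 and 66 genes were changed by these folds there, against 11244 called in the data. The simulated WT 0 h library was given the spread of the common trend. These rates therefore need not hold for the real comparison. Of the table's loci 32835 matched the TAIR10.1 annotation, which gave names, products and coordinates, and 767 did not. The comparison and its 28 gene lists (568 genes) were chosen with earlier results of these data known, and product families after values were seen. Named genes were the 12 largest called rises and falls with both 6 h libraries on the same side and at least 10 CPM in the higher group, up to 5 members of each list with the smallest p and those needed to account for it, the 5 largest line differences each way, and the 5 most abundant called genes each way. Of 606 such genes 21 share at least 100 bases at 95% identity or more with another gene (BLAST+ 2.17.0), and 148 overlap another annotated gene. Alternatives were other added counts, scalings and filters, edgeR 4.0.16 and DESeq2 1.42.0 on the recovered reads, other baselines, fits on fewer libraries, and each library except WT 0 h left out.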

Additional observations from a re-analysis of the deposited data

Results flagged for a closer look

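The change from 0 h to 6 h differed between WT and iSPCH, in limma's test of the difference itself, for 30 genes that the text names or that belong to the gene lists. Values are the WT change minus the iSPCH change on the log2 scale. Of the 30, 12 were called in every alternative that could be fitted, 18 were lost in at least 1 and 0 changed sign.

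The WT change was the more negative for stomatal genes, namely SPCH (-8.16), EPF2 (-3.37), the receptor-like gene TMM (-3.31), the polarity gene POLAR (-1.60), and ICE1 (-1.10) and SCRM2 (-0.74), the bHLH partners of SPCH. TMM was called in WT with a change of -0.36, a call lost in 5 of 23 alternatives, among them the fits without either WT 6 h library (limma adjusted p of up to 0.124), and ICE1 was not called in WT (-0.04). The uncharacterised AT1G12845 (-4.15) changed by -1.16 in WT and 2.99 in iSPCH, and AT2G25460 (-2.35) by 0.90 in WT and 3.25 in iSPCH. GLYI7 (-1.77) and AT4G37220 (-1.10), both among the largest rises in WT, rose further in iSPCH, by 7.15 and 6.71. Also more negative in WT were JAZ10 (-1.54), a jasmonate repressor, CRF2 (-1.29), a cytokinin response factor, and FER1 (-1.09), a ferritin.

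The copper and superoxide dismutase genes CSD2 (-1.46), CCS (-1.11) and CSD1 (-1.02) were the more negative in WT as well. CSD2 had 2502 and 1853 normalised reads in WT at 6 h and 9277 in WT at 0 h, and 3103 and 2385 in iSPCH at 6 h and 4060 and 4444 in iSPCH at 0 h. CCS had 1412 and 1169 in WT at 6 h and 1835 in WT at 0 h, and 1539 and 1358 in iSPCH at 6 h and 884 and 1029 in iSPCH at 0 h. In both genes the WT 0 h library lay above both iSPCH 0 h libraries. The copper chaperone gene CCH (0.69) and the iron superoxide dismutase gene FSD1 (0.59) were the more positive in WT.

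Clock and light-signalling genes were the more positive in WT: PRR9 (1.25), PIF4 (1.04), PRR7 (1.02), CDF3 (0.80) and PIF5 (0.61). For PRR7, PRR9 and PIF4 the WT 0 h library lay below both iSPCH 0 h libraries. The remaining positive differences were those of AT4G16880 (1.95), AT3G55240 (1.88), AT1G70820 (1.8), AT4G16870 (1.57), AT2G25200 (1.53), the cold-responsive KIN2 (1.0) and the auxin gene IAA2 (0.65). The calls of AT4G37220 and JAZ10 were lost in 11 alternatives each, that of PRR9 in 8, and those of FSD1 and KIN2 in 6 each.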

How the results depend on the processing

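Calls between WT at 6 h and WT at 0 h numbered 9358 to 12936 over the alternatives, against 11244. edgeR gave 5894 higher and 5871 lower, DESeq2 4792 higher and 4826 lower. With library sizes as the only scaling, the median of all genes was 0.09 and the split 6566 higher and 4718 lower (58.2% higher, beside 51.2%). Counting only differences of at least 2-fold left 4136 calls, 1836 higher and 2300 lower, in WT, 4489 in iSPCH and 66 for the line difference. The line difference numbered 89 with no filter on low reads and 41 to 280 with each library except WT 0 h left out. Of 178 named genes called in WT, 164 were called in every alternative tested, 13 were lost in at least 1, and CCS changed sign with both lines' untreated libraries as baseline (0.12, limma adjusted p = 0.739); the cause was not tested. The medians of clock morning, detoxification, copper, gibberellin, cold, aquaporin, glutathione transferase and cytochrome P450 genes changed sign in at least 1 alternative. Without the deeper WT 6 h library the genes called lower numbered 2 for hypoxia (against 5), 2 for defence (4) and 1 for gibberellin (3), those called higher numbered 2 for cold (4), and 1 phosphate gene was called higher without either WT 6 h library (2). No paired analysis was possible because the WT 0 h library has no replicate number and the table gives group means. A single untreated library, 2 libraries per other group and the unsplit abundant genes limit precision.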

Other observations

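Further gene lists and product families are given with their shares, beside 29.3% higher and 27.9% lower of all genes. Some were near these shares and others were not. Of 36 tested detoxification genes 14 were called higher (38.9%) and 12 lower (33.3%) in WT at 6 h than in WT at 0 h. GSTF2, a phi-class glutathione transferase, had 6101 and 6547 normalised reads in WT at 6 h, against 1429 in WT at 0 h, and GSTU25, of the tau class, 230 and 275 in WT at 6 h, against 843 in WT at 0 h. Jasmonate genes gave 7 higher (35%) and 6 lower (30%) of 20. The synthesis genes AOS (-1.14), LOX3 (-2.36) and OPR3 (-0.61) fell, while MYC2, the central transcription factor, rose, with 978 and 913 in WT at 6 h, against 485 in WT at 0 h, and so did the repressor gene JAZ9 (0.76). Of 15 gibberellin genes 5 were called higher (33.3%) and 3 lower (20%). All 3 receptor genes rose, GID1C with 724 and 664 in WT at 6 h and 293 in WT at 0 h, while the synthesis gene GA20OX1 fell to 2.84 and 6.04 in WT at 6 h, against 37.7 in WT at 0 h. CPD, a brassinosteroid synthesis enzyme, had 7996 and 7494 in WT at 6 h, against 2405 in WT at 0 h (1.69). Of the 18 brassinosteroid genes 4 were called higher (22.2%) and 1 lower (5.56%).

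Of 17 tested hypoxia genes 9 were called higher (52.9%) and 5 lower (29.4%). LBD41 had 180 and 151 in WT at 6 h, against 32.4 in WT at 0 h (2.31), whereas PDC1, the pyruvate decarboxylase of fermentation, had 53.1 and 43.3 in WT at 6 h and 56.2 in WT at 0 h and was not called. Phosphate genes gave 2 higher (15.4%) and 7 lower (53.8%) of 13. The sulfolipid synthase SQD2 was at 564 and 560 in WT at 6 h, against 1361 in WT at 0 h. Aquaporin genes gave 5 higher (38.5%) and 6 lower (46.2%) of the 13 that could be tested, with a median of -0.17. The other 6, known only as the authors' means, were all higher at 6 h, with ratios of WT at 6 h over WT at 0 h between 1.22 for PIP2;1 and 2.16 for TIP1;2. With them included, each mean divided evenly over its libraries, 10 were called higher and 6 lower and the median was 0.33. PIP1;4 had 2228 and 2131 in WT at 6 h, against 6171 in WT at 0 h, and PIP2;2 15212 and 13753 in WT at 6 h, against 10158 in WT at 0 h. Cold and dehydration genes gave 4 higher (26.7%) and 5 lower (33.3%) of 15. RD22 was lowest, at 687 and 726 in WT at 6 h, against 4697 in WT at 0 h. Guard cell genes gave 1 higher (10%) and 4 lower (40%) of 10, with a median of -0.27. The count called lower was 2 when only genes with a mean of at least 5 CPM were tested. KAT1, a potassium channel of guard cells, had the largest fall of that list (-1.32), with 129 and 127 in WT at 6 h, against 320 in WT at 0 h. The mean of the guard cell marker MYB60 was 274 in WT at 6 h and 286 in WT at 0 h. By annotated product, F-box genes gave 66 higher (40%) and 17 lower (10.3%) of 165 tested. UDP-glycosyltransferases gave 25 higher (24%) and 43 lower (41.3%) of 104, and cytochrome P450 genes 35 higher (21.6%) and 47 lower (29%) of 162. Peroxidases gave 9 higher (18.4%) and 17 lower (34.7%) of 49, and glutathione transferases 15 higher (31.9%) and 22 lower (46.8%) of 47. Heat shock proteins gave 30 higher (26.8%) and 29 lower (25.9%) of 112, near the shares of all genes.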
